A study of Homo sapiens with 2 samples.

Results

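The tumour necrosis factor (TNF) superfamily ligands and their receptors were examined in HaCaT cells, a line of spontaneously immortalized human skin keratinocytes. Genes were taken by name: symbols beginning with TNFSF or TNFRSF, and TNF, LTA, LTB, LTBR, FAS, FASLG, CD40, CD70, NGFR, EDA, EDAR, EDA2R and RELT. The gene table held 37 such genes among 15159, of which 14 encode ligands and 23 encode receptors. FASLG, EDA2R, TNFSF8, TNFSF11, TNFRSF1B, TNFRSF13B, TNFRSF17 and TNFRSF18 were not analysed here. CD40LG and CD27 also belong to the superfamily by structure but lie outside the naming.

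There were 2 libraries of total RNA. The FLI1 overexpression library came from HaCaT cells given the MigR1 vector carrying FLI1, an ETS-family transcription factor, and the vector control library came from HaCaT cells given empty MigR1. Both had 4 µg of DNA delivered with Lipofectamine 2000, a medium change after 6 hours and RNA extraction 2 days after transfection. GFP was checked before extraction. No label says that transfected cells were separated from the others or which species' FLI1 sequence was used, so each library is taken as a dish average. Reads assigned to the genes of the table summed to 14677273 in the FLI1 library and 14497105 in the control library. FLI1 itself had 2452 reads in the FLI1 library, against 64 in the control library, a log2 ratio of 5.26 with a counting interval of 4.91 to 5.65.

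With 1 library per group there is no replicate check and no test. Differences are log2 ratios of scaled reads, FLI1 library over control library, with an exact 95% interval that covers counting error only and compares these libraries, not the conditions. A gene is called measured where either library has 20 reads or more, and 2-fold higher or lower where its log2 ratio reaches 1 or -1. Levels are compared between genes as FPKM, which is scaled for length. In a dish average, fewer cells with a transcript and less of it per cell cannot be told apart.

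Keratinocyte identity was checked by marker genes. All 10 keratinocyte markers were measured, and together they had 7202 FPKM in the FLI1 library and 7564 in the control library. Of 10 T cell markers LCK alone was listed, with 9 reads in the FLI1 library and 7 in the control library. The 3 of 7 B cell markers listed had 7 and 4 reads together, with PAX5 at 0 in the control library. The 7 of 9 myeloid markers listed had 53 reads in the FLI1 library and 43 in the control library, with FCER1G at 0 in the FLI1 library and CD14 at 0 in the control library. The 4 of 8 endothelial markers listed had 95 reads in the FLI1 library, 90 of them from VWF, against 55 in the control library, 52 of them from VWF, and CDH5 was at 0 in the control library. The 3 of 7 fibroblast markers listed had 100 reads in the FLI1 library, 98 of them from COL1A1, against 101 and 100 in the control library, with PDGFRB at 0 there. The part of these transcripts in the ratios below was not tested.

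TNF superfamily ligands are trimeric proteins made at the cell surface, many of which can be cut loose by proteases, and each binds 1 or a few receptors of the same family. The receptors fall into those whose cytoplasmic tail carries a death domain, which can start apoptosis or NF-kB signalling, those that recruit TRAF adaptors directly, and decoys that bind ligand without a working tail. In skin, TNF is a central inflammatory cytokine of psoriasis, EDA and EDAR guide hair follicle and sweat gland formation, and Fas and the TRAIL receptors can trigger apoptosis of keratinocytes.

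Most of the measured members differed little between the libraries. Of the 37 genes, 20 were measured, and 17 were below the minimum. Of the 20 measured, 19 (95%) differed by less than 2-fold, against 98.3% of all measured genes. TNFSF12 was the only measured gene that was 2-fold higher, while 1.19% of all 11659 measured genes were. None of the 20 was 2-fold lower, against 0.48% of all measured genes. An interval wholly above 0 was found for 6 members, LTBR, TNFRSF12A, TNFRSF21, TNFRSF10A, TNFRSF10B and TNFSF10, where 16.5% of all measured genes had one. CD70 alone had an interval wholly below 0, where 14.7% of all measured genes had one. The remaining 13 measured members had intervals that included 0. The median log2 ratio was 0.07 over the 20 members and -0.0036 over all measured genes.

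**Figure D1:**
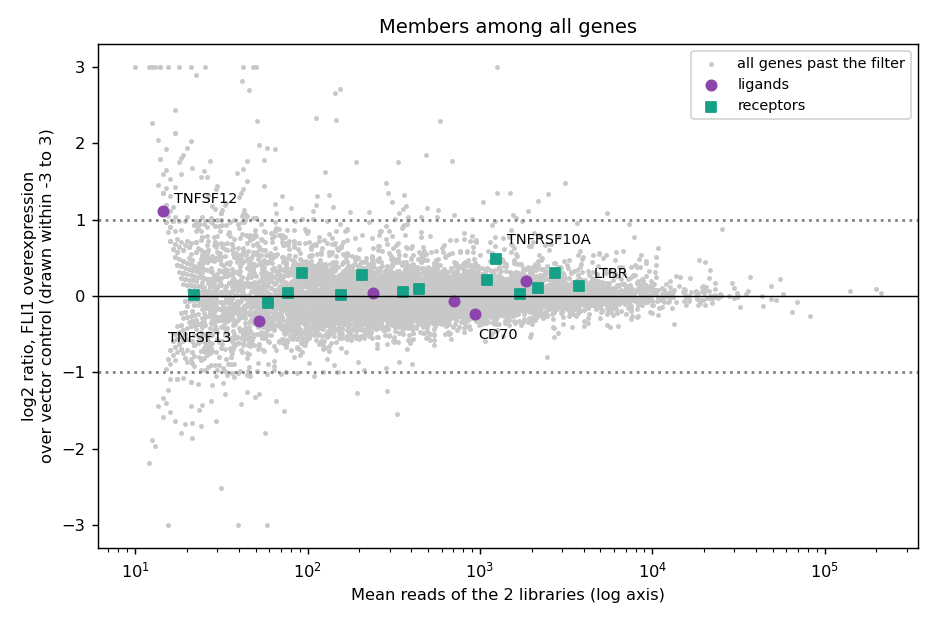
Log2 ratio of each measured gene (vertical axis, FLI1 overexpression over vector control, drawn within -3 to 3) against its mean reads (log axis), with all genes in grey, ligands as circles and receptors as squares; dotted lines mark 2-fold. The members lie within the cloud of all genes, and TNFSF12, with 20 reads in the FLI1 library and 9 in the control library, is the only one beyond a dotted line.

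The family's transcripts were concentrated in a few genes. Among ligands, TNFSF10, CD70 and TNFSF9 made up 96.1% of the summed ligand FPKM in the FLI1 library and 96.5% in the control library. Among receptors, LTBR, TNFRSF12A, TNFRSF1A, TNFRSF21, TNFRSF10B and TNFRSF10A made up 91.3% in the FLI1 library and 90.9% in the control library. Summed over all 23 receptors, FPKM was 513 in the FLI1 library and 460 in the control library, and reads were 15059 and 13338, a log2 ratio of 0.18 (interval 0.15 to 0.22). Summed over all 14 ligands, FPKM was 199 in the FLI1 library and 204 in the control library, and the log2 ratio of 3895 to 3819 reads was 0.04 (-0.03 to 0.10). The receptor sum was thus slightly higher in the FLI1 library, while the interval of the ligand sum included 0.

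**Figure D2:**
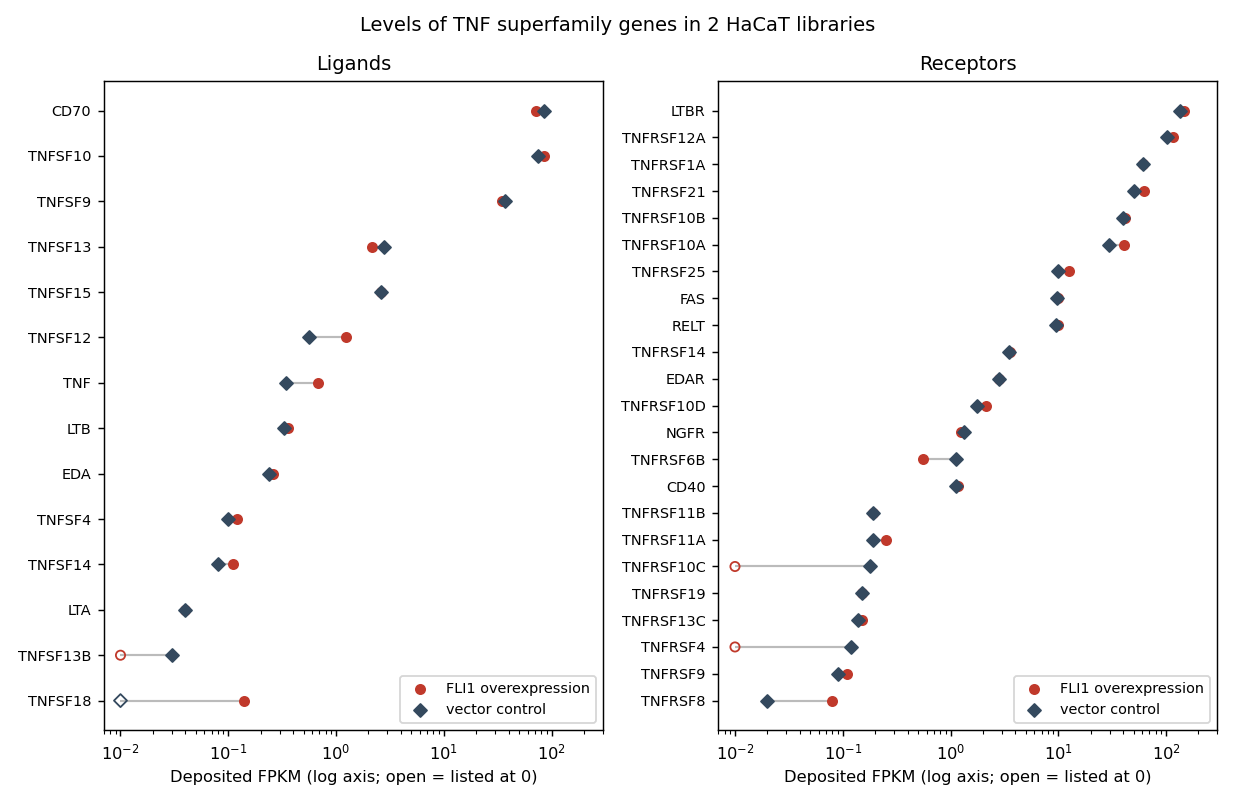
Deposited FPKM of each ligand (left) and receptor (right) on a log axis, with circles for the FLI1 overexpression library and diamonds for the vector control library; open symbols at the left edge are genes listed at 0. The 3 leading ligands and 6 leading receptors lie above 29 FPKM in both libraries, and the wide gaps at the bottom are genes with few reads.

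Of the ligands, TNFSF10 and CD70 had the highest levels, and they differed in opposite directions. TNFSF10 encodes TRAIL, which binds the TRAIL death receptors and is a known interferon-inducible gene. It had 1976 reads and 84.6 FPKM in the FLI1 library, against 1726 reads and 74.7 FPKM in the control library, a log2 ratio of 0.20 (0.11 to 0.30) or 1.15-fold. CD70, the ligand of CD27 on lymphocytes, had 856 estimated reads and 72.3 FPKM in the FLI1 library, against 1015 estimated reads and 85.8 FPKM in the control library. Its log2 ratio was -0.24 (-0.37 to -0.11), or 1.18-fold lower. By FPKM, TNFSF10 was therefore above CD70 in the FLI1 library and below it in the control library. TNFSF9, the ligand of the T cell receptor TNFRSF9 (4-1BB), had 690 reads in the FLI1 library and 726 in the control library, and its interval (-0.22 to 0.09) included 0.

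The other 3 measured ligands had few reads or near-equal values. TNFSF15, which encodes TL1A, the ligand of TNFRSF25, had 241.7 estimated reads in the FLI1 library and 237.4 in the control library, with 2.61 FPKM in each. TNFSF13, which encodes the B cell survival factor APRIL, had 46 reads in the FLI1 library and 58 in the control library, a log2 ratio of -0.32 (-0.92 to 0.26). TNFSF12 encodes TWEAK, the ligand of TNFRSF12A. It had 20 reads and 1.24 FPKM in the FLI1 library, against 9 reads and 0.56 FPKM in the control library. The log2 ratio of TNFSF12 was 1.12 and its interval of -0.04 to 2.48 included 0. TNFSF12 passed the minimum only through the FLI1 library, where it had exactly the 20 reads required. TNFSF12 and TNFSF13 lie 402 bases apart on the plus strand of chromosome 17, and both share exons with the readthrough gene TNFSF12-TNFSF13, which was not analysed here.

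TNF itself was barely detected. It had 14 reads in the FLI1 library and 7 in the control library, or 0.68 and 0.34 FPKM, and the interval of its log2 ratio ran from -0.40 to 2.56, so a 2-fold difference in this gene was not detectable at this depth. The TNF reads were spread evenly over copies of 1 model, with 2 reads on each copy in the FLI1 library and 1 in the control library. Whether these are independent reads, as the interval assumes, was not tested. LTA and LTB, which encode the lymphotoxins, lie 1.24 and 2.19 kb from TNF on chromosome 6. LTA had 1 read and LTB had 3 reads in each library. Together the 3 genes of this locus had 18 reads in the FLI1 library and 11 in the control library (log2 ratio 0.69, -0.44 to 1.95). EDA, the ectodysplasin gene, had 19 reads in the FLI1 library and 17 in the control library, and TNFSF4 (OX40 ligand) 16 and 14. TNFSF14 (LIGHT), which binds LTBR and TNFRSF14, had 7 and 5. TNFSF18 (GITR ligand) had 5 reads in the FLI1 library and 0 in the control library, and TNFSF13B (BAFF) had 0 and 1. None of the 8 ligands below the minimum had an interval that left out 0.

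All 8 death-domain receptors were measured, and 7 of them had a ratio above 0. For 3 the interval lay wholly above 0, against 16.5% of all measured genes, and genes with many reads have narrower intervals. A ratio above 0 was found in 49.2% of all measured genes. EDAR had equal reads in the 2 libraries, so its ratio of 0.0078 came from the scaling alone. Scaled by library total, EDAR was at -0.018 and TNFRSF1A at -0.0034. TNFRSF10A, which encodes the TRAIL receptor DR4, had the largest ratio of the 14 receptors with at least 20 reads in either library. It had 1449 reads and 41.0 FPKM in the FLI1 library, against 1037 reads and 29.6 FPKM in the control library, a log2 ratio of 0.49 (0.37 to 0.61) or 1.40-fold. A ratio at least this high was found in 4.65% of all measured genes. TNFRSF21, which encodes DR6, an orphan receptor studied mainly in neurons and T cells, had 3016 reads and 62.0 FPKM in the FLI1 library, against 2452 reads and 51.0 FPKM in the control library. The log2 ratio of TNFRSF21 was 0.31 (0.23 to 0.38), and 8.81% of all measured genes had one as high. TNFRSF10B, the gene of the other TRAIL death receptor DR5, had 2260 reads in the FLI1 library and 2109 in the control library, a log2 ratio of 0.11 (0.02 to 0.19).

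The TRAIL receptors lie together on chromosome 8, in the order TNFRSF10B, TNFRSF10C, TNFRSF10D and TNFRSF10A, with 18.2 to 33.4 kb between neighbours. The interval of TNFRSF10A did not meet that of TNFRSF10B at the other end of the cluster. TNFRSF10D, a decoy with a truncated death domain, had 102 reads in the FLI1 library and 83 in the control library (log2 ratio 0.30, -0.13 to 0.74), an interval that spans that of TNFRSF10A. TNFRSF10C, the decoy anchored by a lipid, had 0 reads in the FLI1 library and 3 in the control library. Summed FPKM of the TRAIL death receptors was 82.9 in the FLI1 library and 69.1 in the control library, against 2.14 and 1.94 for the decoys. The log2 ratio of summed reads was 0.25 for the death receptors (0.18 to 0.31) and 0.25 for the decoys (-0.17 to 0.69). Transcripts of the TRAIL death receptors thus far outweighed those of the decoys in both libraries.

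TNFRSF1A, the main receptor of TNF, was level between the libraries within a narrow interval. It had 1712 reads and 61.6 FPKM in the FLI1 library, against 1695 reads and 61.7 FPKM in the control library, a log2 ratio of 0.02 (-0.08 to 0.12). FAS, the receptor of Fas ligand, had 361.6 estimated reads in the FLI1 library and 351 in the control library (0.05, -0.16 to 0.27). TNFRSF25 (DR3), the receptor of TL1A, had 225.9 estimated reads in the FLI1 library and 188 in the control library, and its log2 ratio of 0.27 had an interval of -0.01 to 0.56. TNFRSF25 shares exon sequence with PLEKHG5 on the same strand, which had 1101 reads in the FLI1 library and 839 in the control library (0.40, 0.27 to 0.53), and with ESPN on the opposite strand, which had 305 and 457 (-0.57). The part of these overlaps in the TNFRSF25 value was not tested. EDAR, the ectodysplasin receptor, had 156 reads in each library, and NGFR, the low-affinity neurotrophin receptor, had 57 in the FLI1 library and 61 in the control library.

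Among the 11 receptors without a death domain, 5 were measured and all had a ratio above 0, against 49.2% of all measured genes. That of CD40, with 22 reads in each library, was 0.0078 from the scaling alone, and -0.018 when scaled by library total. For 2 of the 5 the interval lay wholly above 0, against 16.5% of all measured genes. LTBR, the lymphotoxin beta receptor, which feeds noncanonical NF-kB signalling, had the highest level of the whole family. It had 3930 estimated reads and 146 FPKM in the FLI1 library, against 3592 estimated reads and 135 FPKM in the control library, a log2 ratio of 0.14 (0.07 to 0.20). TNFRSF12A (Fn14), the receptor of TWEAK and a gene induced by growth factors and injury, had 1179 reads and 115 FPKM in the FLI1 library, against 1028 reads and 101 FPKM in the control library. The log2 ratio of TNFRSF12A was 0.21 (0.08 to 0.33). RELT, an orphan receptor, had 454 reads in the FLI1 library and 430 in the control library. TNFRSF14 (HVEM), which binds LIGHT, had 78 and 76, and CD40 had 22 in each. The intervals of these 3 genes included 0, and that of CD40 spanned -0.91 to 0.93.

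The other 6 receptors of this class had at most 19 reads. TNFRSF11A (RANK) had 19 in the FLI1 library and 13 in the control library, TNFRSF9 had 9 and 7, and TNFRSF13C (BAFF receptor) 8 and 7.19 estimated reads. TNFRSF19 had 4 reads in the FLI1 library and 6 in the control library, TNFRSF8 (CD30) 4 and 1, and TNFRSF4 (OX40) 0 and 2. Of the secreted decoys, TNFRSF6B, which binds Fas ligand, LIGHT and TL1A, had 7 reads in the FLI1 library and 14 in the control library, and TNFRSF11B (osteoprotegerin) had 5 in each. TNFRSF6B shares exons with the readthrough gene RTEL1-TNFRSF6B, which was not analysed here. It also overlaps ARFRP1 on the opposite strand, which had 562 reads in the FLI1 library and 648 in the control library. The part of these overlaps in the TNFRSF6B reads was not tested. All 9 receptors below the minimum had intervals that included 0. Their reads together were 56 in the FLI1 library and 58 in the control library. Lymphocyte receptors such as OX40, CD30 and 4-1BB were thus at trace levels in both dishes.

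**Figure D3:**
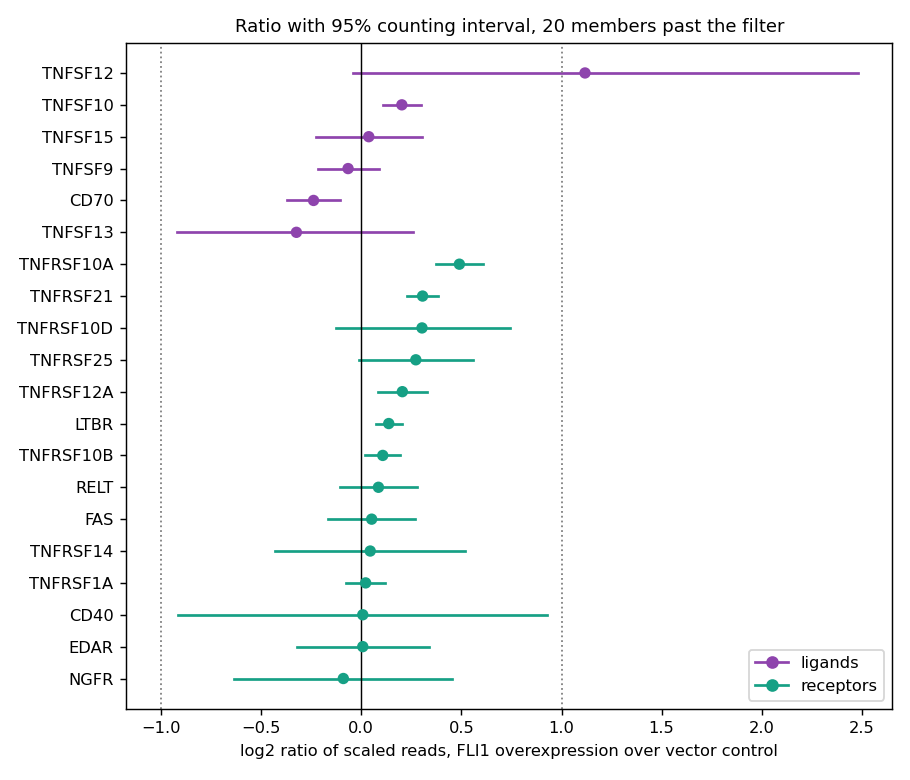
Log2 ratio (FLI1 overexpression over vector control) of the 20 measured members, ligands above receptors, with bars for the 95% counting interval and dotted lines at 2-fold. TNFRSF10A at 0.49 and TNFRSF21 at 0.31 stand clear of 0 with short bars, TNFSF12 at 1.12 has a bar that reaches -0.04, and the bar of TNFRSF1A is short and spans 0.

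LTBR and TNFRSF1A lie 32.9 kb apart on chromosome 12, on opposite strands, and their log2 ratios were 0.14 and 0.02 with intervals that overlapped. TNFSF9, CD70 and TNFSF14 lie in a row on chromosome 19 with 47.3 and 57.2 kb between them. The log2 ratios of TNFSF9 and CD70 were -0.07 and -0.24, also with intervals that overlapped, and TNFSF14 was below the minimum. LTBR overlaps exons of SCNN1A on the opposite strand, which had 1225 estimated reads in the FLI1 library and 1316 in the control library. TNFRSF12A overlaps CLDN6 on the opposite strand, which had 0 and 2 reads. TNFRSF10B overlaps RHOBTB2, also opposite, which had 422 and 368. TNFRSF10A overlaps TNFRSF10A-AS1 on the opposite strand, which was not analysed here. Whether the counting used strand is not stated, so reads of opposite-strand pairs may not be told apart. TNFRSF21, TNFRSF1A, TNFSF10 and CD70 share exons with no other gene of GENCODE release 29.

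Genes downstream of the receptors were read from 6 lists, and most differed by less than 2-fold, as did 98.3% of all measured genes. Over all measured genes, 1.19% were 2-fold higher, 16.5% had an interval above 0 and 14.7% had one below it. Genes with many reads have narrow intervals, which leave 0 more easily. Among adaptors, 15 of 16 listed genes were measured, 2 had intervals above 0 and 2 below it, with a median log2 ratio of 0.03. TRAF1, an NF-kB-induced adaptor that pairs with TRAF2, was the only adaptor 2-fold higher, with 93 reads in the FLI1 library and 24 in the control library (1.94, 1.30 to 2.67). TRAF5, which serves CD40, HVEM and related receptors and was chosen after its values were seen, had 195 reads in the FLI1 library and 314 in the control library (-0.68, -0.94 to -0.42). TRAF1 and TRAF5 thus differed in opposite directions. In the list of death receptor effectors and inhibitors all 14 genes were measured, 5 intervals lay above 0 and none below it, with a median of 0.15. PEA15, an inhibitor of death receptor signalling, was at 0.17 (0.09 to 0.25), and DIABLO, a mitochondrial activator of apoptosis, was at 0.01 (-0.13 to 0.16). CFLAR, which encodes the caspase-8 inhibitor FLIP and was also chosen after its values were seen, had 1010.7 estimated reads in the FLI1 library and 603.2 in the control library (0.75, 0.61 to 0.90). That list holds both activators and inhibitors of cell death, so its median has no direction of its own.

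In the kinase and ubiquitin complexes that form at TNF receptors, 20 of 20 genes were measured, with a median of 0.03. Intervals lay above 0 for 5 of them and below it for 2. The shares over all measured genes were 16.5% above and 14.7% below, here and for the next 2 lists. TNFAIP3 (A20), which removes ubiquitin chains and restrains NF-kB, was 2-fold higher, with 2604 reads in the FLI1 library and 1206 in the control library (1.12, 1.02 to 1.22). Of the proteases and cofactors listed for the cutting or processing of TNF family proteins, 10 of 10 were measured, and 1 had an interval above 0. This was ADAM8, with 4583 reads in the FLI1 library and 3281 in the control library (0.49, 0.42 to 0.56), while FURIN was at -0.0016 (-0.07 to 0.06). Among genes that TNF induces in keratinocytes, 16 of the 20 in the list were measured, 10 intervals lay above 0 and 1 below it, with a median of 0.30. MMP9 had 29 reads in the FLI1 library and 8 in the control library (1.80, 0.70 to 3.21), and with TNFAIP3, which both lists hold, it made the 2 genes of this list that were 2-fold higher. MMP9 passed the minimum of 20 reads only through the FLI1 library. TNFAIP2, chosen after its values were seen, was the 1 gene with an interval below 0, with 980 reads in the FLI1 library and 1375 in the control library (-0.48, -0.60 to -0.36).

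Of the RNA-binding genes that control the stability or translation of TNF messages, all 11 were measured, with a median of 0.0017. In this list 1 interval lay above 0 and 3 below it, against 16.5% and 14.7% of all measured genes. ZFP36 (tristetraprolin), which promotes decay of TNF mRNA and was chosen after its values were seen, was the 1 above, with 312 reads in the FLI1 library and 199 in the control library (0.66, 0.40 to 0.92). TIA1, a translational repressor of TNF mRNA also chosen after its values were seen, had 1126 reads in the FLI1 library and 1353 in the control library (-0.26, -0.37 to -0.14). HNRNPD had 4381 reads in the FLI1 library and 4402 in the control library, and KHSRP had 4725 and 5240 (-0.14, -0.20 to -0.08). The RELT relatives RELL1 and RELL2 were at -0.09 and 0.14, with intervals that included 0, and CD27 had 5 reads in the FLI1 library and 3 in the control library. In these lists the TNF-induced genes had a higher median than the ligands (-0.01) or the receptors (0.10). The lists were chosen with earlier results of these data known, so this contrast is a description only.

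**Figure D4:**
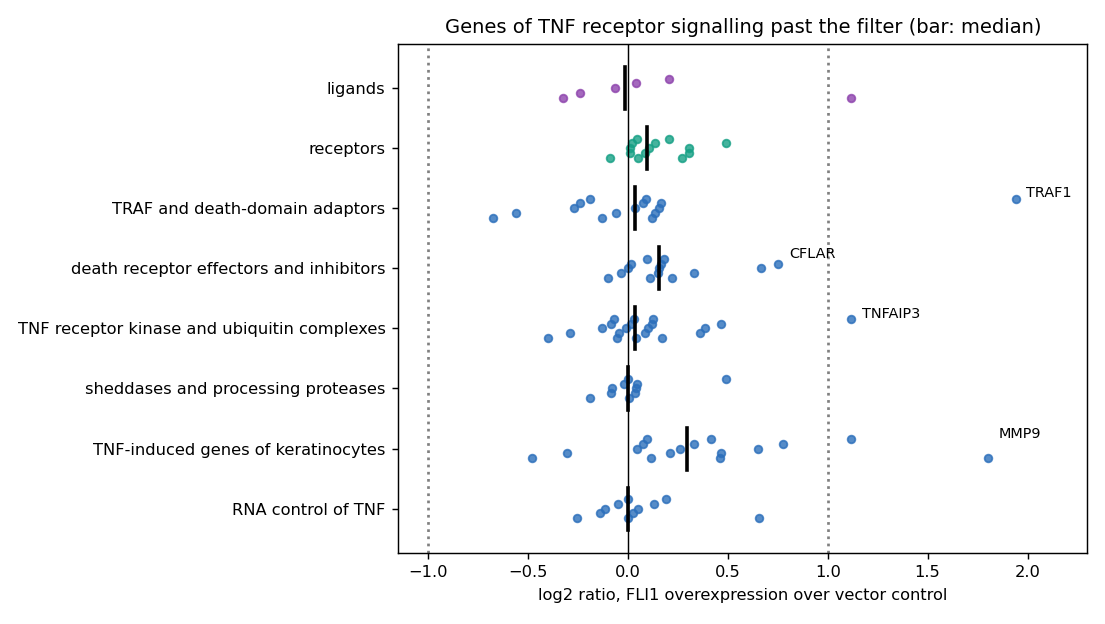
Log2 ratio (FLI1 overexpression over vector control) of each measured gene, by group, with a black bar at the group's median and dotted lines at 2-fold. The TNF-induced genes have a median of 0.30, the ligands -0.01 and the receptors 0.10, and TRAF1, MMP9, TNFAIP3 and the ligand TNFSF12 lie beyond 2-fold. The lists were chosen with earlier results of these data known.

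Promoter sequence was looked up because FLI1 binds DNA with a GGAA core. RefSeq windows (GRCh38.p14) of 300 bases, from 250 before to 50 after a transcript start, were matched by gene ID for 23 of the 37 members, 32 windows in all. These include TNFSF10, TNFRSF21 and LTBR of the 6 members with intervals above 0, and neither TNFRSF10A, TNFRSF10B and TNFRSF12A nor CD70, the member with an interval below 0. The longer ETS motif CCGGAAGT was in 0 of the 32 windows on either strand and in 4.14% of all 35116 windows. The repeat GGAAGGAA was in 1 window, the upstream one of FAS, and in 3.67% of all windows. The NF-kB consensus was in 11 windows (34.4%), which belonged to FAS, LTA, LTB, TNFRSF14, TNFRSF19, TNFRSF25, TNFRSF9, TNFSF13 and TNFSF14, and in 11.3% of all windows. Windows of a gene can overlap, and a match on both strands at the same place was counted once. The GGAA core, which the ETS motif and the repeat contain, was in 93.8% of member windows and 95.5% of all windows, with a median of 5 sites per member window and 3 per window overall. A match is a description of these letters, not a binding site.

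Promoters of 5 members are shown to set these matches beside the ratios: TNFSF10, TNFRSF21 and LTBR had intervals above 0, TNFRSF1A was level, and FAS holds the GGAA repeat. Capitals mark GGAA on the printed strand or, as TTCC, on the other. The windows are chr3:172523381-172523680 (minus strand) for TNFSF10, chr6:47309856-47310155 (minus) for TNFRSF21, chr12:6383912-6384211 (plus) for LTBR, chr12:6342027-6342326 (minus) for TNFRSF1A and chr10:88990548-88990847 (plus) for FAS.
TNFSF10: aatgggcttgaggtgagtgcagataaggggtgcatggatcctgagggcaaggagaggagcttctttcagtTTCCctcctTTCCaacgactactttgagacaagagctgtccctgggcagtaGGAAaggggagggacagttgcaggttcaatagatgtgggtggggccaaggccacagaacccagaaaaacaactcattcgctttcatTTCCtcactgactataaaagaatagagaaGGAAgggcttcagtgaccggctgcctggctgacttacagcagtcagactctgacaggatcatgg
TNFRSF21: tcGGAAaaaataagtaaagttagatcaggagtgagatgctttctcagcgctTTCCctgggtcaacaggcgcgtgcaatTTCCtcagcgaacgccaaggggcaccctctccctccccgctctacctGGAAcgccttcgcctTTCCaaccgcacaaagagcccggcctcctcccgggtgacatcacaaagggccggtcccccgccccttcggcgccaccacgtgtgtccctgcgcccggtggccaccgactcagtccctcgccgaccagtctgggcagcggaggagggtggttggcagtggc
LTBR: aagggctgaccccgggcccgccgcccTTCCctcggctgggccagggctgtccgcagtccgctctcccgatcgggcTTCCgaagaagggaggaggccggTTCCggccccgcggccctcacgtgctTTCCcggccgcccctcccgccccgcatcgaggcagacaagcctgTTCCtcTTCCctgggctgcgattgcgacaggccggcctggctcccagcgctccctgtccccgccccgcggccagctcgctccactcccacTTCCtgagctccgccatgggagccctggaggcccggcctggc
TNFRSF1A: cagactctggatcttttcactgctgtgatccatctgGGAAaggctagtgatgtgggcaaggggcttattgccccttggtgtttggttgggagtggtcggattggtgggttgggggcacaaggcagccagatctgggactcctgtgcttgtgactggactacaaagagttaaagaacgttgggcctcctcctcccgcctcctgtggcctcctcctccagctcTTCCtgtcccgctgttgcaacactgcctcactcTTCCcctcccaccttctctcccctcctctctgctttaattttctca
FAS: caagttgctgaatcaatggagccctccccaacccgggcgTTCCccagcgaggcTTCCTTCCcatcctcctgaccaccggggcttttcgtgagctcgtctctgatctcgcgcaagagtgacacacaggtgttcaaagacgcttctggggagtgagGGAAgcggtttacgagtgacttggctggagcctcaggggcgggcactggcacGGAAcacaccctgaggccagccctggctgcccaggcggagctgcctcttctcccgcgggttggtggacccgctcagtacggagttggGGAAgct

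The windows of TNFSF10 and TNFRSF21 each held 5 GGAA cores, that of LTBR 7, that of FAS 6 and that of TNFRSF1A 3. Nearly all windows carry this core, and none of these 5 windows held CCGGAAGT or the NF-kB consensus.

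Transcripts of the members were read from the transcript table, which splits each gene's reads among RefSeq models. The members had 95 transcripts, of which 31 had at least 20 reads in 1 library. Of these 31, 3 were 2-fold higher (9.68%) and 2 were 2-fold lower (6.45%), against 16.4% and 15.4% of all 37706 transcripts at this minimum. Only 7 of the 31 had whole counts in both libraries, so the others rest on the authors' assignment of shared reads, and the counting interval leaves out the error of that step. TNF, LTB and TNFRSF14 were listed with copies of the same models that held equal values. The 3 higher ones were models of TNFSF12, LTBR and TNFRSF1A, and the 2 lower ones were models of TNFSF10 and TNFSF15. Only the LTBR model had 20 reads or more in both libraries. The TNFSF12 and TNFRSF1A models passed the minimum only through the FLI1 library. Those of TNFSF10 and TNFSF15 passed it only through the control library.

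TNFSF10 was higher as a gene while its short model was lower. The full-length model NM_003810, with 5 exons and 843 coding bases, had 1958.9 estimated reads in the FLI1 library and 1675.1 in the control library (0.23, 0.14 to 0.33). NM_001190942, which joins exon 2 to the last exon and leaves out 2 exons of 148 bases together, had 12.1 estimated reads in the FLI1 library and 46.1 in the control library (-1.89, -2.98 to -0.99). Its share of the gene's reads was 0.612% in the FLI1 library and 2.67% in the control library. The joins after exon 2 are shown because they tell the models apart, with 15 bases on each side from GENCODE release 29 (GRCh38) and the downstream exon in capitals. They lie in coding sequence on the minus strand of chromosome 3, after the exon at 172514861 to 172514998.
NM_003810: cagctcgttagaaagATGATTTTGAGAACC
NM_001190942: cagctcgttagaaagACTCCAAGAATGAAA

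LTBR had a model with its own first exon that differed more than the gene did. NM_001270987, whose first exon at 6375429 to 6375594 of chromosome 12 lies 8.44 kb upstream of the usual one, had 105.0 estimated reads in the FLI1 library and 44.5 in the control library (1.25, 0.74 to 1.80). Its share of LTBR reads was 2.67% in the FLI1 library and 1.24% in the control library. NM_002342, the main model, had 3304 and 3125 estimated reads (0.09, 0.02 to 0.16) and an 84.1% share in the FLI1 library and 87.0% in the control library. The upstream first exon overlaps an exon of SCNN1A on the opposite strand. Both models continue with the same second exon, as the joins show, with the second exon in capitals.
NM_002342: tcgcagccccaggcgGTGCCTCCATATGCG
NM_001270987: gcatctcaattaaagGTGCCTCCATATGCG

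TNFSF15 and TNFRSF1A were level as genes and had a minor model that differed. TNFSF15 model NM_001204344 had 0 reads in the FLI1 library and 41.4 estimated reads in the control library. This is 13.6-fold lower if 3 reads are taken as a floor in the FLI1 library. The upper end of its log2 interval was -3.40, a smaller difference than that, and the split of reads between the models is estimated. The other TNFSF15 model, NM_005118, had 241.7 estimated reads in the FLI1 library and 196.0 in the control library (0.31, 0.03 to 0.59). TNFRSF1A model NM_001346092 had 42.2 estimated reads in the FLI1 library and 8.74 in the control library (2.17, 1.17 to 3.45), while NM_001346091 had 0 and 8.74. The main TNFRSF1A model NM_001065 held 97.5% of the gene's reads in the FLI1 library and 99.0% in the control library. TNFRSF10A, TNFRSF21 and TNFRSF12A each had 1 model past the minimum, with whole counts equal to those of the gene. TNFRSF10B had 2, of which NM_003842 was at 0.20 (0.08 to 0.32) and NM_147187 at -0.0037 (-0.13 to 0.12).

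**Figure D5:**
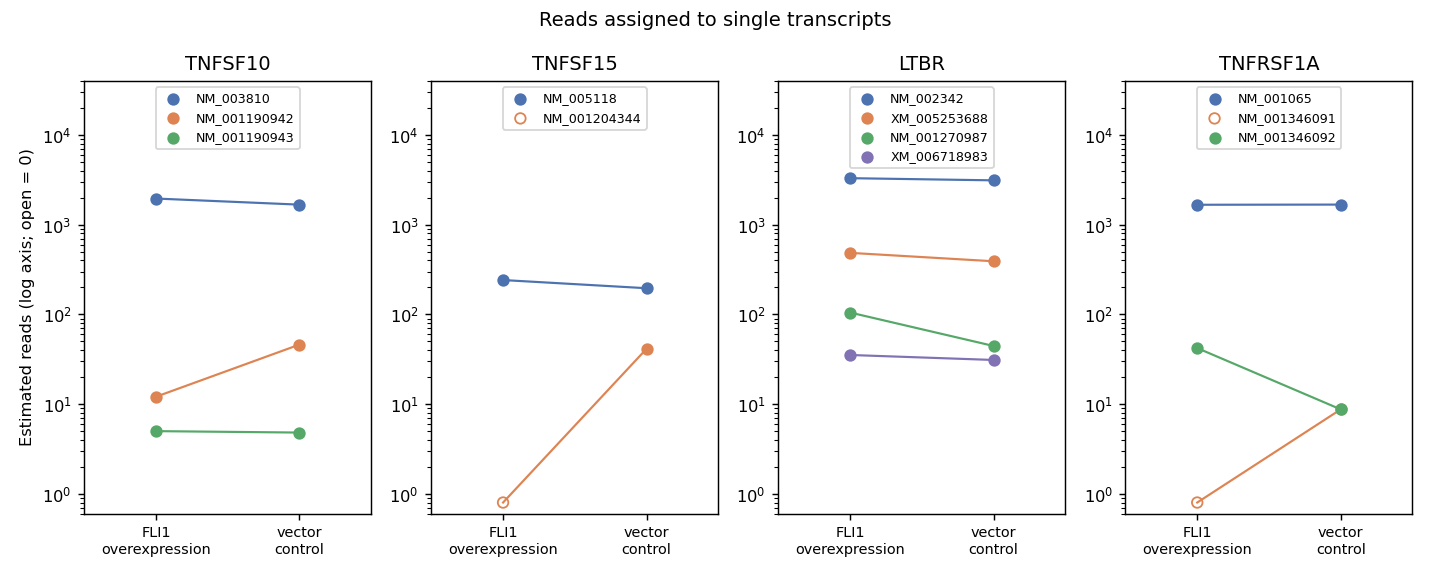
Estimated reads (log axis) assigned to each transcript model of TNFSF10, TNFSF15, LTBR and TNFRSF1A, with the FLI1 overexpression library at the left and the vector control library at the right of each panel; open circles are 0 reads. The leading model of each gene runs nearly flat, while minor models such as NM_001190942 (12.1 and 46.1 reads) and NM_001270987 (105.0 and 44.5 reads) slope.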

How the data were processed

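Both deposited tables cover the whole series, 1 by gene and 1 by transcript. Per the labels, the total RNA was read on a BGISEQ machine. The submitters' processing notes name GRCh38.p13 as the genome build. Aligner, counting tool, annotation and strandedness were not given in the sources used here. Per the file headers, the tables hold read counts, FPKM and TPM. The deposited read counts are estimated counts, of which 81.5% were whole to within 0.005 reads in both libraries of the gene table. They were rounded to whole numbers, since the design had foreseen counts. Levels are the deposited FPKM, which the authors scaled by gene length and depth. The TPM columns that the authors deposited were left aside. Every per-library column had its sample.

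Library sizes were adjusted with TMM factors from edgeR 4.0.16 (R 4.3.3), 0.991 for the FLI1 library and 1.01 for the control library. The log2 ratio is that of the count plus 0.5 over the effective library size. The 95% interval is the exact conditional (Clopper-Pearson) one, in scipy 1.17.1. It covers counting error only, because each group had 1 library. Reads that carry no molecular identifier can be copies of a molecule, so it may be too narrow even for that error. Its half-width was 0.97 at 20 reads in each library, 0.41 at 100 and 0.13 at 1000. The calculation was tested on simulated Poisson counts with known ratios. Such counts have the error that the interval assumes, so this checks the arithmetic and not how well the interval suits estimated reads. List medians needed 5 measured members.

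Named were FLI1, every measured member, and from each list up to 4 genes past 2-fold, or else the 2 with the highest mean FPKM. Others are said to be chosen after their values were seen. Members and lists were chosen with earlier results of these data known. Positions and exon overlaps came from GENCODE release 29 (GRCh38), and promoters from RefSeq (GRCh38.p14). The alternatives tried were scaling by library total or DESeq2 1.42.0 size factors, a minimum of 100 reads or of 1, FPKM with 0.5 or 1 added, and leaving out genes without whole counts.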

Additional observations from a re-analysis of the deposited data

How the results depend on the processing

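No paired analysis was possible because each group had 1 library, and for the same reason no replicate could be left out. Of 98 alternative values of the group counts, medians and FLI1, 89 stayed within the limits set for them (the counting interval for FLI1, the members' median half-width for medians and 1.5 times for counts), and all 95 alternative ratios of single members stayed within their counting intervals. Much of this agreement was fixed in advance. Leaving out genes without whole counts keeps the ratio of every member that stays, and another scaling shifts all ratios by the same small amount. That shift can change the sign of a ratio near 0, and scaled by library total CD40, EDAR and TNFRSF1A were below 0. The limit for medians was also wider than most of the medians. At a minimum of 100 reads 0 ligands were 2-fold higher, since TNFSF12 then drops out, and from FPKM with 0.5 or 1 added the count was also 0. With every gene that had a read, 2 ligands were 2-fold higher and 1 lower, and 1 receptor was higher and 2 lower, all on few reads. The log2 ratio of FLI1 was 4.69 from FPKM with 0.5 added and 4.39 with 1 added. A size rule of 1.5-fold, chosen after seeing the data, gave 1 ligand and 0 receptors higher and 0 of either lower. The median over all measured genes lay between -0.03 and -0.0036 under every scaling tried. Depth limits the 17 members below 20 reads, TNF among them, whose intervals all included 0.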

Other observations

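CFLAR, the caspase-8 inhibitor gene, was looked at by transcript after its gene value had been seen. It had 15 models in the table, none with whole counts in both libraries. XM_017005190 had 336.7 estimated reads in the FLI1 library and 39 in the control library (log2 ratio 3.10), and XM_017005191 had 20.2 and 156.5 (-2.92). NM_001308043 had 270.1 in the FLI1 library and 161.7 in the control library (0.74), and NM_001127184 had 87.1 and 64.7 (0.43, -0.05 to 0.91). The models thus differed in both directions while the gene's sum was higher in the FLI1 library, and how far this rests on the assignment of shared reads was not tested.

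TRAF1 had 1 model in the table, NM_001190945, with whole counts equal to those of the gene.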
